A study of Mus musculus with 6 samples.

Results

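The genes examined were 35 mouse demethylases and their near relatives: the LSD amine oxidases, the histone demethylases and hydroxylases that carry a JmjC domain, and the AlkB family of nucleic acid dioxygenases. They were chosen by family name from a fixed list of gene symbols, and all 35 were found among the 35275 gene rows of the deposited expression table. RNA was sequenced from 3T3 cells, an immortalized mouse fibroblast line, in 6 libraries. One group of 3 libraries came from cells with a control construct and the other group of 3 from cells with a construct that overexpresses NNMT, the enzyme that transfers a methyl group from S-adenosylmethionine to nicotinamide. All 6 cultures were kept for 48 h in DMEM made without methionine, brought to 10 µM methionine and given 10% dialyzed fetal bovine serum. The genotype of the 2 groups differs, per the labels, in the construct alone. The promoter of the construct, the way it was delivered and whether each group descends from 1 transduced population or clone were not given in the sources used here. Differences between 2 such populations that arose before the comparison therefore cannot be told apart from an effect of NNMT.

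Demethylases remove methyl groups from histones, DNA and RNA. The LSD enzymes use FAD and can act on mono- and dimethylated lysines, whereas the JmjC and AlkB enzymes use iron, oxygen and 2-oxoglutarate and release the methyl group as formaldehyde. S-adenosylmethionine, the methyl donor that NNMT consumes and that cells make from methionine, is the donor for the methyltransferases whose marks these enzymes remove. Some JmjC proteins, such as Riox1, Riox2, Jmjd4 and Jmjd6, are better known for hydroxylating proteins, and Jarid2 has a JmjC domain without known demethylase activity.

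Nnmt itself stood at 7.60, 5.25 and 6.51 FPKM (fragments or reads per length of transcript and depth of library) in the control libraries and at 15.7, 15.03 and 18.3 FPKM in the NNMT libraries, which do not overlap. Control values are given in the order of replicates 1 to 3, and NNMT values in the order of a library with no number in the table, replicate 2 and replicate 3. The mean of Nnmt was 2.53-fold higher, and whether the construct carries the mouse sequence was not given in the sources used here. Between 31622251 and 39982078 reads per library were recovered from the values, so that 1 read on 1 kb was worth 0.0250 to 0.0316 FPKM. All 11 fibroblast markers examined averaged at least 1 FPKM. Their sum ran from 9039 to 9322 FPKM in the control libraries and from 11919 to 13369 FPKM in the NNMT libraries. Of the 11, 7 rose and 3 fell (Thy1 2.14-fold, Vim 1.45-fold and S100a4 1.37-fold lower). Of 6 epithelial markers, 4 (Epcam, Krt18, Krt19 and Cldn4) were at 0 in all 6 libraries, and the 6 summed to at most 0.140 FPKM in any library. Endothelial markers summed to at most 0.247 FPKM, and leukocyte and macrophage markers to 2.40 to 2.88 FPKM in control and 1.19 to 1.84 FPKM in NNMT libraries. Muscle markers summed to 1.39 to 5.73 FPKM in control and 2.13 to 2.71 FPKM in NNMT libraries.

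Of the 35 genes, 33 averaged at least 1 FPKM over all libraries and were tested. With limma and Benjamini-Hochberg adjustment over all 10882 tested genes at 0.05, 12 rose with NNMT, 12 fell and 9 did not pass the test. Among all tested genes 65.6% passed in either direction, 35.0% rose and 30.6% fell, so that the demethylases changed at about the rate of the transcriptome. The median log2 fold change was 0.01 over the 33 and 0.03 over all tested genes. The groups of libraries did not overlap for 25 of the 33, against 69.9% of all tested genes. Fold changes on the log2 scale are NNMT minus control on log2(FPKM + 1), which understates the change of genes at low level. The p-values measure the spread between the 3 libraries of a group, and nothing beyond the submitters' word that the replicates were biological says how separate the cultures were.

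By protein family, the counts of the 9 AlkB genes and the 26 LSD and JmjC genes differed in direction. Among the AlkB genes 7 rose, 1 fell and 1 did not pass (88.9% called, beside the 65.6% of all tested genes), and their median log2 fold change was 0.20. Alkbh3 is among the 7 and lost its call under median-of-ratios scaling (limma adjusted p = 0.0693). No AlkB gene lies on chromosome X, 4 or 16. When each chromosome was centred on its own median, an alternative chosen after seeing the data, Alkbh5, Fto and the falling Alkbh7 lost their calls and Alkbh4 fell. Of the 24 LSD and JmjC genes that were tested 5 rose, 11 fell and 8 did not pass (66.7% called), with a median of -0.10. Of the 11 that fell, 6 lie on X or chromosome 4, where most tested genes fell. Off those chromosomes 5 of 18 rose and 5 fell, with a median of 0.02. The summed level of the AlkB genes was 107 ± 2.35 FPKM (SD, n = 3) in control and 123 ± 1.77 FPKM in NNMT libraries, with ranges of 105 to 110 and 121 to 124 FPKM. The LSD and JmjC genes summed to 271 ± 4.21 FPKM and 254 ± 5.64 FPKM. Both shifts kept their direction under median-of-ratios scaling, where the ratio of NNMT to control was 1.13 for the AlkB sum and 0.92 for the other. All 35 together summed to 378 ± 5.97 FPKM in control and 377 ± 7.22 FPKM in NNMT libraries, a difference smaller than the spread within either group. Under median-of-ratios scaling these sums were 382 ± 6.68 and 373 ± 10.3 FPKM. Whether the lean of one family differs from that of the other was not tested.

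**Figure D1:**
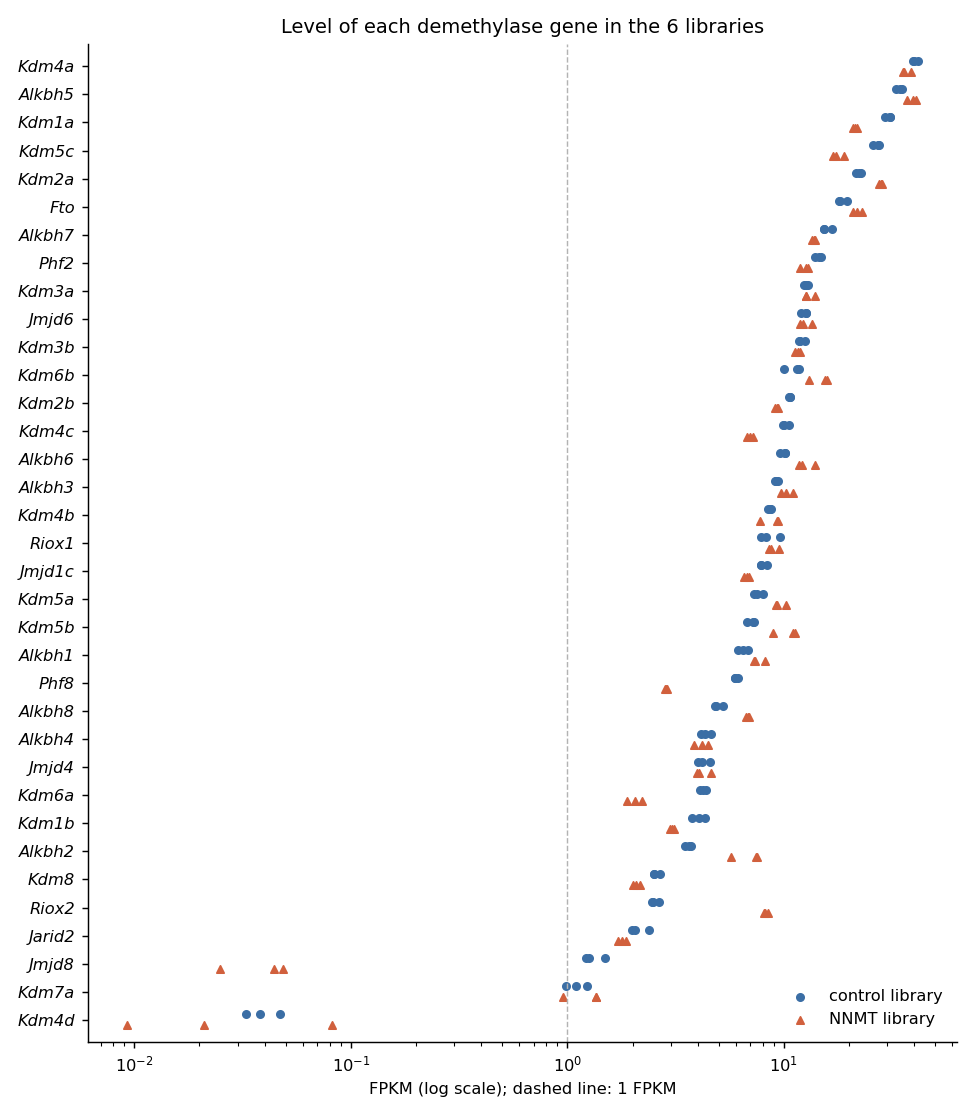
Level of each of the 35 demethylase genes in FPKM on a log axis, with 1 point per library, circles for control and triangles for NNMT libraries, and a dashed line at 1 FPKM. The NNMT points of Riox2 and Alkbh2 lie above, and those of Jmjd8, Phf8 and Kdm6a below, all control points of the same gene.

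In control cells the most abundant transcripts per length were, in order, Kdm4a, Alkbh5, Kdm1a, Kdm5c, Kdm2a and Fto, and the libraries of each of these stood apart from those of the next. In NNMT cells Alkbh5 had the highest mean and its libraries overlapped those of Kdm4a, followed by Kdm2a, Fto, Kdm1a and Kdm5c. Fto and Kdm1a overlapped there. Riox2 moved from rank 31 to rank 20, Alkbh2 from 29 to 23, Kdm5b from 21 to 14 and Kdm6b from 12 to 7. In the other direction, Kdm4c went from rank 14 to 22, Phf8 from 23 to 29 and Kdm6a from 27 to 31.

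Both LSD amine oxidases fell. Kdm1a (LSD1), which removes mono- and dimethylation from lysine 4 of histone H3 within the CoREST complex, lies at chr4:136550540-136602723 (GRCm38, annotated gene span). It stood at 30.7, 30.8 and 29.2 FPKM in the control libraries and at 21.7, 21.2 and 20.9 FPKM in the NNMT libraries. Every NNMT library was below every control library, with a 1.42-fold lower mean and a log2 fold change of -0.49 (SE 0.0457, limma adjusted p = 6.99e-06). Kdm1b (LSD2), its relative known for demethylating H3 in growing oocytes, stood at 4.32, 3.77 and 4.07 FPKM in control and at 2.99, 3.04 and 3.09 FPKM in NNMT libraries. The NNMT libraries were again all lower, by 1.33-fold (log2 fold change -0.32, SE 0.0635, limma adjusted p = 0.00121).

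In the KDM2 and KDM7 family 1 of 5 genes rose, 3 fell and 1 did not pass. Kdm2a, which binds unmethylated CpG islands and acts on H3 lysine 36, had 22.6, 22.1 and 21.6 FPKM in control and 28.1, 27.4 and 28.5 FPKM in NNMT libraries. The NNMT libraries were all higher, by 1.27-fold (log2 fold change 0.33, SE 0.0445, limma adjusted p = 1.01e-04). Its paralog Kdm2b, which recruits a Polycomb complex to CpG islands, fell from 10.6 ± 0.0516 to 9.25 ± 0.173 FPKM (SD, n = 3; log2 fold change -0.18, limma adjusted p = 0.00616). The paralogs thus moved in opposite directions, each beyond the spread of its libraries.

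Phf8, the X-linked demethylase of H3 lysine 9 and H4 lysine 20 whose human counterpart is mutated in a form of intellectual disability, was at 5.95, 6.13 and 5.94 FPKM in control libraries. In NNMT libraries it was at 2.82, 2.86 and 2.87 FPKM. The groups lay far apart relative to their spread, with a 2.11-fold lower mean in NNMT (log2 fold change -0.86, SE 0.0552, limma adjusted p = 5.20e-07). It lies at chrX:151520672-151633859. Phf2, an autosomal relative, fell less, from 14.4 ± 0.438 to 12.5 ± 0.553 FPKM (log2 fold change -0.19, limma adjusted p = 0.00721). Kdm7a was low, between 0.956 and 1.36 FPKM in all 6 libraries, and its groups overlapped (limma adjusted p = 0.495).

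Among the KDM3 demethylases of H3 lysine 9, only Jmjd1c passed the test. It fell from 7.997 ± 0.275 to 6.73 ± 0.172 FPKM (1.19-fold lower, log2 fold change -0.22, limma adjusted p = 0.00402), and all NNMT libraries were below all control libraries. Kdm3a was at 12.7 ± 0.236 FPKM in control and 13.1 ± 0.710 FPKM in NNMT libraries, and Kdm3b was at 12.05 ± 0.406 and 11.6 ± 0.256 FPKM. Neither passed (limma adjusted p = 0.508 and 0.339), and their libraries overlapped between groups.

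The KDM4 enzymes remove trimethylation from lysines 9 and 36 of histone H3. Kdm4a, at chr4:118136957-118180043, was the most abundant of the 35 in control cells, with 41.5, 39.9 and 39.2 FPKM against 38.4, 35.4 and 35.7 FPKM in NNMT libraries. The highest NNMT library came within 1 FPKM of the lowest control library, and the mean was 1.102-fold lower (log2 fold change -0.14, SE 0.0493, limma adjusted p = 0.0306). That call was lost without control replicate 1 (adjusted p = 0.116), control replicate 2 (0.0696), NNMT replicate 2 (0.0733) or NNMT replicate 3 (0.0968).

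Kdm4c, on the same chromosome at chr4:74242497-74405860, stood at 10.5, 10.0 and 9.93 FPKM in control and at 6.77, 7.18 and 6.95 FPKM in NNMT libraries. All NNMT libraries were lower, by 1.46-fold (log2 fold change -0.49, SE 0.0517, limma adjusted p = 1.84e-05). Kdm4b did not pass, with 8.59 ± 0.111 FPKM in control and 8.78 ± 0.932 FPKM in NNMT libraries (limma adjusted p = 0.771). Kdm4d, a gene best known from the testis, was near the limit of detection at 0.00927 to 0.0817 FPKM and 11 reads per group, and was not tested.

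The KDM5 enzymes, which remove trimethylation from lysine 4 of histone H3, split by chromosome. The autosomal Kdm5a was at 7.96, 7.47 and 7.27 FPKM in control and at 9.18, 9.26 and 10.2 FPKM in NNMT libraries. All NNMT libraries were higher, by 1.26-fold (log2 fold change 0.30, SE 0.0593, limma adjusted p = 0.00124). Kdm5b had 7.27, 6.77 and 7.20 FPKM in control libraries and 11.0, 8.90 and 11.3 FPKM in NNMT libraries. NNMT replicate 2 was the lowest of its group yet above every control library, and the mean was 1.47-fold higher (log2 fold change 0.49, SE 0.0795, limma adjusted p = 3.49e-04).

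The X-linked Kdm5c, at chrX:152233020-152274535, was at 27.6, 27.2 and 25.7 FPKM in control and at 19.0, 16.8 and 17.3 FPKM in NNMT libraries. It was the most abundant KDM5 gene in both groups and fell 1.52-fold, with no overlap (log2 fold change -0.58, SE 0.0558, limma adjusted p = 9.27e-06). Jarid2, a partner of the Polycomb complex PRC2, was lower in every NNMT library, at 1.70, 1.86 and 1.79 FPKM against 2.38, 1.98 and 2.04 FPKM. It did not pass the test (log2 fold change -0.17, SE 0.0731, limma adjusted p = 0.0645).

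The KDM6 demethylases remove methylation from lysine 27 of histone H3, the mark that PRC2 sets. Kdm6a (UTX), at chrX:18162575-18279936, was at 4.11, 4.35 and 4.23 FPKM in control and at 1.89, 2.06 and 2.20 FPKM in NNMT libraries. The groups did not overlap, and the mean was 2.06-fold lower (log2 fold change -0.78, SE 0.0648, limma adjusted p = 3.24e-06). Kdm6b (JMJD3), a gene induced by many stimuli, had 11.7, 11.5 and 9.99 FPKM in control and 15.8, 13.1 and 15.4 FPKM in NNMT libraries. All NNMT libraries were higher, by 1.33-fold (log2 fold change 0.38, SE 0.0788, limma adjusted p = 0.00158). Hence 1 KDM6 gene fell and the other rose.

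Kdm5c and Kdm6a have close relatives on the Y chromosome, Kdm5d and Uty, that are not among the 35. Uty was at 0.463, 0.528 and 0.412 FPKM in control libraries and at 5.96, 6.29 and 6.40 FPKM in NNMT libraries, 13.3-fold higher (log2 fold change 2.30, limma adjusted p = 2.66e-09). Kdm5d was at 0.733, 0.618 and 0.737 FPKM and at 11.2, 10.5 and 11.8 FPKM, 16.02-fold higher (log2 fold change 2.84, limma adjusted p = 7.27e-10). Each X-linked gene was thus lower, and its Y relative higher, in all 3 NNMT libraries. How the authors' counting placed reads that match both copies of a pair was not given in the sources used here, so values within a pair carry that uncertainty.

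Summed, Kdm6a and Uty gave 4.57, 4.87 and 4.64 FPKM in control libraries and 7.86, 8.35 and 8.61 FPKM in NNMT libraries. The NNMT sums were all higher, with a mean of 8.27 ± 0.382 FPKM against 4.70 ± 0.158 FPKM (SD, n = 3), 1.76-fold, and an exact two-sided permutation p of 0.1, the smallest that 3 against 3 libraries allow. Uty made up 8.88% to 10.8% of the sum in control libraries and 74.4% to 75.9% in NNMT libraries. For Kdm5c and Kdm5d the sums were 28.3, 27.9 and 26.4 FPKM in control and 30.2, 27.3 and 29.1 FPKM in NNMT libraries. These overlapped (27.5 ± 0.965 against 28.9 ± 1.46 FPKM, SD, n = 3, exact two-sided permutation p = 0.3), and as recovered reads over library totals the NNMT sums were all higher (log2 ratio 0.18, exact two-sided permutation p = 0.1, against 0.07 in FPKM). Kdm5d made up 2.22% to 2.78% of the FPKM sum in control libraries and 37.1% to 40.4% in NNMT libraries. Together Kdm5a, Kdm5b and Kdm5c summed to 41.5 ± 1.30 FPKM in control and 37.6 ± 2.32 FPKM in NNMT libraries, and with Kdm5d included to 42.2 ± 1.30 and 48.8 ± 2.89 FPKM. The direction of the KDM5 total therefore depends on whether the Y-linked member is counted.

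**Figure D2:**
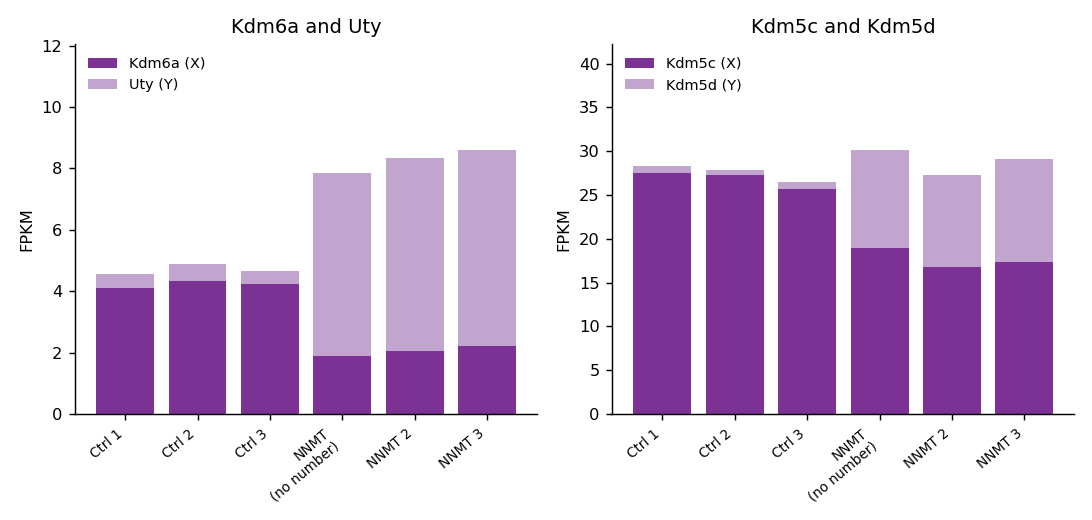
Level in FPKM of Kdm6a with Uty and of Kdm5c with Kdm5d in each library, with the X-linked and the Y-linked gene stacked in 1 bar. The Y-linked share grows in the 3 NNMT libraries, to at least 74.4% of the Kdm6a and Uty sum and at least 37.1% of the Kdm5c and Kdm5d sum.

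Because Kdm6a and Uty share ancestry and moved in opposite directions, the 250 bases before their annotated starts are shown, from RefSeq on GRCm38.p6 and 5′ to 3′ on the strand of the gene. The window of Kdm6a is chrX:18162325-18162574 on the plus strand and that of Uty is chrY:1245760-1246009 on the minus strand. Capitals mark CACGTG, the E-box, and GGGCGG, the GC box, both searched on both strands.
Kdm6a: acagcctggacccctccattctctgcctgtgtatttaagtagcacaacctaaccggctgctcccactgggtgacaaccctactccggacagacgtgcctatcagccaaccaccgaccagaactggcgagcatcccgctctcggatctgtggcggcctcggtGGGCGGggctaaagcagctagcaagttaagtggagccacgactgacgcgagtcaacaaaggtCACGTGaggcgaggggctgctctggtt
Uty: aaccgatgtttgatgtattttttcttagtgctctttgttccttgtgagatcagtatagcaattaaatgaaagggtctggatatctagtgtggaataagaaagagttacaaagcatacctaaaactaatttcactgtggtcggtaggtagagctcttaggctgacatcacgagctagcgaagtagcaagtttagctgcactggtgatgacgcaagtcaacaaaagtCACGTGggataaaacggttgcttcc
Each window holds 1 E-box, 27 bases before the start of Kdm6a and 25 bases before that of Uty. Of the 30 bases that end with the E-box 24 are identical. These include the E-box itself, on which the stretches were aligned. Over all 250 bases the windows differ in composition: Kdm6a has 15 CpG dinucleotides and 1 GC box, and Uty has 7 and none. An E-box was present in 2 of the 30 matched members, Kdm6a and Alkbh7 (6.67%), against 6.05% of all 27025 promoters of this length and 8.94% of those of tested genes. A match of letters describes the window and is not a measured binding site.

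Of the JmjC hydroxylases, 1 of 5 tested genes rose, 1 fell and 3 did not pass. Riox2 (MINA), a ribosomal oxygenase that hydroxylates a histidine of a ribosomal protein, showed the largest rise among the 35. It was at 2.46, 2.48 and 2.65 FPKM in control and at 8.05, 8.16 and 8.43 FPKM in NNMT libraries. The groups were tight and far apart, with a 3.25-fold higher mean (log2 fold change 1.38, SE 0.0564, limma adjusted p = 2.65e-08) resting on 593 and 2057 reads. The gene lies at chr16:59471775-59492461 and shares 22.4% of its exon bases with Crybg3 on the opposite strand, which rose 1.54-fold (log2 fold change 0.45, limma adjusted p = 1.67e-04). Whether the counting used strand was not given in the sources used here, so reads on shared bases cannot be told apart.

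Jmjd8, a JmjC-domain protein of the endoplasmic reticulum, was at 1.26, 1.49 and 1.21 FPKM in control and at 0.0441, 0.0250 and 0.0486 FPKM in NNMT libraries. These are 97, 131 and 87 reads against 4, 2 and 4 reads. Its mean over the 6 libraries was below 1 FPKM, so it was not among the 33 tested genes, and it is described here after its values were seen. The ratio of group means was 33.6-fold lower in NNMT, with a 95% exact interval of 18.0 to 70.8 for the pooled reads that covers counting error only. Without the filter on low values it passed, at a log2 fold change of -1.16 (limma adjusted p = 2.98e-05). The gene, at chr17:25828867-25831843, shares 39.3% of its exon bases with Stub1 on the opposite strand. Stub1 was at 49.8 ± 2.02 FPKM in control and 45.8 ± 3.73 FPKM in NNMT libraries and did not pass (limma adjusted p = 0.109).

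The windows before the starts of these genes are given as those of the strongest rise and the deepest fall among the 35, again 250 bases of GRCm38.p6 from RefSeq with GC boxes in capitals. Riox2 has chr16:59471525-59471774 and Jmjd8 has chr17:25828793-25829042, both on the plus strand. The RefSeq start of Jmjd8 lies within the annotated gene span given above, so that 176 of the 250 bases of its window fall inside that span.
Riox2: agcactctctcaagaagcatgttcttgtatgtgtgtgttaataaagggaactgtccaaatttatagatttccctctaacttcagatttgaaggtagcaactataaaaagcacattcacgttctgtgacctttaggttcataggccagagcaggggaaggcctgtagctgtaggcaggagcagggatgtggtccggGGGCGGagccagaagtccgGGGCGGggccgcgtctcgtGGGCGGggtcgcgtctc
Jmjd8: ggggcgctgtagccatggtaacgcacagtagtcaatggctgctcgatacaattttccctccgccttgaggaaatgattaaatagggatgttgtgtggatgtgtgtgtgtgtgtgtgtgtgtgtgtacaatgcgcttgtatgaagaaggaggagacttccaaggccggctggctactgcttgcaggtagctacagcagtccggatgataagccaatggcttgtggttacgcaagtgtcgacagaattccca
The window of Riox2 holds 3 GC boxes, at 55, 36 and 17 bases before the start, and 11 CpG dinucleotides, whereas that of Jmjd8 holds no GC box, no E-box and 9 CpG dinucleotides. GC boxes were found in 16 of the 30 matched members (53.3%), against 32.9% of all promoters and 62.8% of those of tested genes. Across these members the number of CpG dinucleotides per window ran from 0 to 56 with a median of 15, against 6 for all promoters and 17 for tested genes.

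Kdm8 (JMJD5), an arginyl hydroxylase, fell from 2.56 ± 0.0944 to 2.08 ± 0.0788 FPKM (1.23-fold lower, log2 fold change -0.21, limma adjusted p = 0.0139). Without control replicate 2 that call was lost (adjusted p = 0.0586). The other hydroxylases gave overlapping groups. Jmjd4 was at 4.26 ± 0.279 and 4.22 ± 0.353 FPKM, Jmjd6 at 12.4 ± 0.386 and 12.5 ± 0.869 FPKM, and Riox1 at 8.58 ± 0.937 and 8.93 ± 0.480 FPKM (limma adjusted p = 0.891, 0.912 and 0.531).

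In the AlkB family the largest change was that of Alkbh2, a repair enzyme that removes alkyl groups from adenine and cytosine in double-stranded DNA. It was at 3.48, 3.73 and 3.65 FPKM in control and at 7.45, 5.67 and 7.49 FPKM in NNMT libraries. NNMT replicate 2 was the lowest of its group and still above every control library, and the mean was 1.90-fold higher (log2 fold change 0.76, SE 0.0904, limma adjusted p = 4.01e-05). The gene, at chr5:114123926-114128218, shares 29.5% of its exon bases with Usp30 on the opposite strand, which rose less, with a log2 fold change of 0.18 (limma adjusted p = 0.0175). Alkbh3, which acts on single-stranded DNA and RNA, was at 9.12, 9.15 and 9.42 FPKM in control and at 9.70, 10.2 and 11.0 FPKM in NNMT libraries. Its rise was 1.12-fold (log2 fold change 0.14, limma adjusted p = 0.0419). That call was lost without any one of control replicates 1 to 3, NNMT replicate 2 or NNMT replicate 3 (adjusted p = 0.0594 to 0.159). It was also lost under quantile normalization (limma adjusted p = 0.102), median-of-ratios scaling (0.0693) and limma-voom (0.154), and without the filter on low values (0.0707).

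The demethylases of N6-methyladenosine in RNA, Alkbh5 and Fto, both rose by a small margin. Alkbh5 was at 35.2, 34.2 and 32.9 FPKM in control and at 40.6, 36.9 and 39.4 FPKM in NNMT libraries. The lowest NNMT library was above the highest control library, and the mean was 1.14-fold higher (log2 fold change 0.19, SE 0.0509, limma adjusted p = 0.00817). Fto went from 18.5 ± 0.893 to 21.8 ± 1.02 FPKM (1.18-fold, log2 fold change 0.23, limma adjusted p = 0.00402), again without overlap.

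The tRNA enzyme Alkbh8, which completes modified uridines of the wobble position, had 4.85, 4.81 and 5.25 FPKM in control and 6.65, 6.82 and 6.90 FPKM in NNMT libraries. All NNMT libraries were higher, by 1.37-fold (log2 fold change 0.38, SE 0.0558, limma adjusted p = 1.55e-04). Alkbh1, which acts on tRNA in cytoplasm and mitochondria, rose from 6.49 ± 0.333 to 7.61 ± 0.516 FPKM (1.17-fold, log2 fold change 0.20, limma adjusted p = 0.0166). Without control replicate 1 or NNMT replicate 2 its adjusted p was 0.0669 and 0.0544.

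Alkbh6 was at 10.1, 9.59 and 10.1 FPKM in control and at 12.1, 13.97 and 11.7 FPKM in NNMT libraries, 1.27-fold higher (log2 fold change 0.31, SE 0.0657, limma adjusted p = 0.00179). NNMT replicate 2, the lowest library of its group for Alkbh2, was the highest here. The only AlkB gene that fell was Alkbh7, a mitochondrial protein linked to programmed necrosis, from 15.8 ± 0.797 to 13.7 ± 0.221 FPKM (log2 fold change -0.19, limma adjusted p = 0.0083). Alkbh4 did not pass, at 4.35 ± 0.219 and 4.16 ± 0.310 FPKM (limma adjusted p = 0.500).

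**Figure D3:**
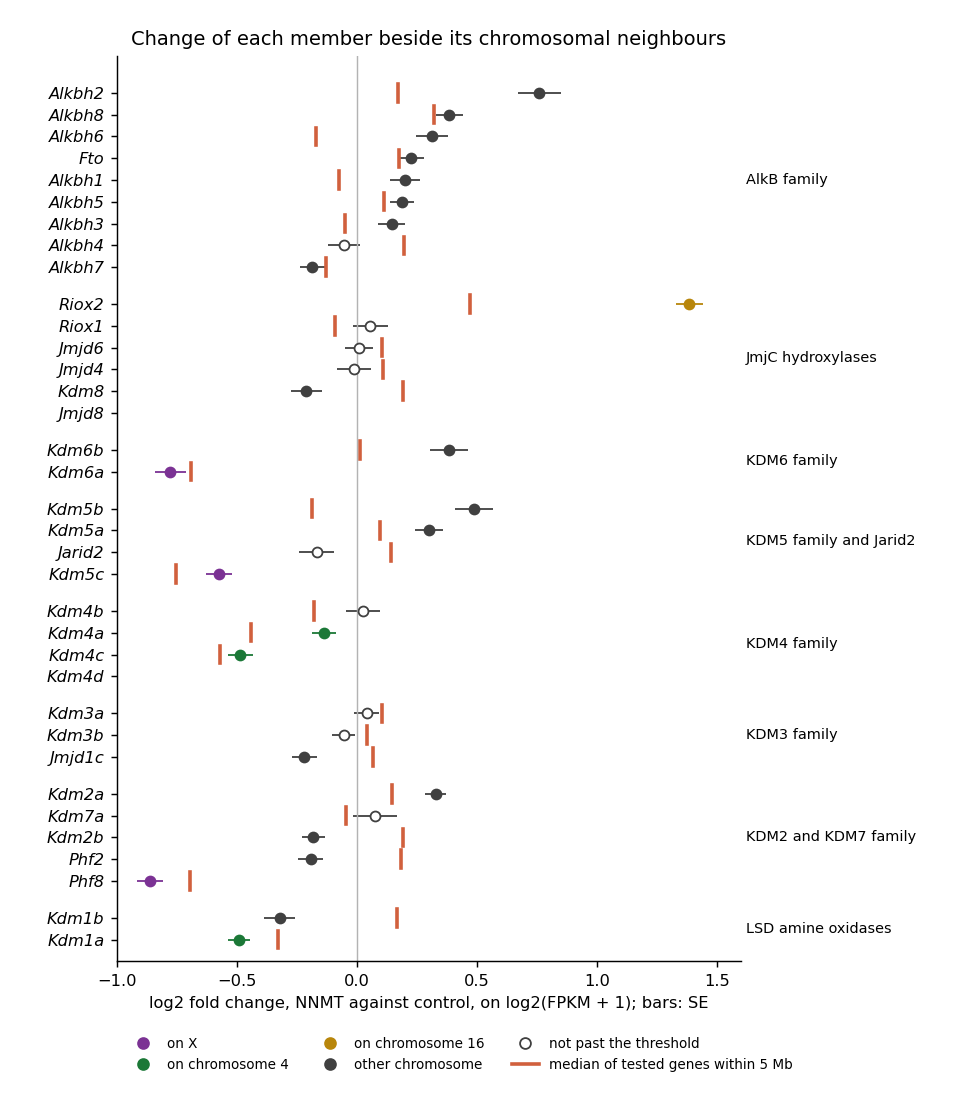
Log2 fold change of each gene, NNMT against control on log2(FPKM + 1), with its standard error as a bar, open circles for genes that did not pass the test and colours for chromosomes X, 4 and 16; vertical ticks give the median of tested genes within 5 Mb. Jmjd8 and Kdm4d have no point because they were not tested, and Riox2, at 1.38, stands farthest to the right.

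The position of the genes moved with these results. On the X chromosome 305 of 338 tested genes fell and 8 rose (median log2 fold change -0.70), and the 3 X-linked demethylases all fell, with a median of -0.78. On chromosome 4 the median was -0.23, with 390 of 688 genes lower and 127 higher, and its 3 members Kdm1a, Kdm4a and Kdm4c all fell. On chromosome 16 the median was 0.29, and its single member Riox2 rose. Each of the 7 tested Y-linked genes rose. In bulk RNA, fewer cells that express a gene and less RNA per cell cannot be told apart.

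Tested genes within 5 Mb on each side gave a closer reference. Around Phf8 20 of 22 neighbours fell and 0 rose, and their median log2 fold change was -0.69 beside the -0.86 of Phf8. Around Kdm6a 19 of 20 fell, with a median of -0.69 beside its -0.78, and for Kdm5c the neighbours' median of -0.75 was below its own -0.58. Phf8 and Kdm5c lie close together, so that their windows largely overlap, each gene counts among the other's neighbours, and the medians are not separate references. Kdm4c (-0.49) lay close to its 6 neighbours, all of which fell (median -0.57). Kdm1a, at -0.49, was somewhat below its neighbours' median of -0.33, and Kdm4a, at -0.14, was above its neighbours' median of -0.44. Riox2, at 1.38, stood above a neighbourhood in which 22 of 25 genes rose (median 0.47).

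Some other members had neighbours that moved differently from them. Kdm5b rose by 0.49 on the log2 scale beside a median of -0.19, Alkbh2 by 0.76 beside 0.17, Alkbh6 by 0.31 beside -0.17, and Kdm6b by 0.38 beside 0.01. Kdm1b (-0.32) and Kdm8 (-0.21) fell among neighbours with medians of 0.17 and 0.19. So did Kdm2b (-0.18 beside 0.19), Phf2 (-0.19 beside 0.18) and Jmjd1c (-0.22 beside 0.06). By contrast, Alkbh8 (0.38 beside 0.32), Fto (0.23 beside 0.17) and Alkbh5 (0.19 beside 0.11) rose close to the median of their neighbours. Alkbh7 (-0.19 beside -0.13) fell close to that of its own. Alkbh1 (0.20 beside -0.07) and Alkbh3 (0.14 beside -0.05) rose among neighbours with a negative median. Alkbh4 (-0.05 beside 0.19) did not pass. In all, 9 of 33 members lay within 0.1 of the median of their neighbours and 15 of 33 below it. Off chromosomes X, 4 and 16, 11 of 26 tested members rose, 6 fell and 9 did not pass, so that 65.4% passed against the 65.6% of all tested genes. With each chromosome's values centred on that chromosome's median, Kdm6a no longer passed (log2 fold change -0.08, limma adjusted p = 0.277). The same centring moved Phf8 to -0.16 (limma adjusted p = 0.0276), Kdm1a to -0.27 and Kdm4c to -0.26, and turned Kdm5c to 0.12 and Kdm4a to 0.09, while Riox2 stayed at 1.08. Alkbh5, Alkbh7 and Fto also lost their calls under it (log2 fold change 0.12, -0.05 and 0.06). Jarid2 (-0.24), Alkbh4 (-0.21) and Riox1 (0.21) gained one (limma adjusted p = 0.0158, 0.0166 and 0.0196).

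The proteins that work with these enzymes were counted in lists chosen by textbook complex or pathway, beside the 65.6% called, 35.0% higher and 30.6% lower of all tested genes. In the CoREST complex of Kdm1a 3 of 11 genes rose and 3 fell (54.5% called, median log2 fold change -0.07). Hdac1, a deacetylase of the complex and a chromosome 4 gene, fell 1.70-fold, from 82.1 to 48.4 FPKM (log2 fold change -0.75, limma adjusted p = 2.17e-07). The other deacetylase in the list, Hdac2, was at 56.1 FPKM in control and 52.9 FPKM in NNMT libraries and did not pass (log2 fold change -0.08, limma adjusted p = 0.195). Rcor2, a scaffold paralog, rose 1.73-fold and Gse1 rose 1.39-fold. In PRC2, the complex of Jarid2 and the writer of the mark that Kdm6a and Kdm6b remove, 0 of 9 tested genes rose and 5 fell (55.6% called, median -0.18). Its catalytic subunit Ezh2 fell 1.23-fold (log2 fold change -0.30, limma adjusted p = 0.00124). The histone-binding subunits Rbbp7, on X, and Rbbp4, on chromosome 4, fell 2.07-fold and 1.55-fold. Phf19, an accessory subunit too low to be tested, had 195 reads in control and 3 in NNMT libraries.

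Of the KMT2C/D complex, with which Kdm6a is found, 1 of 8 tested genes rose and 4 fell (62.5% called, median -0.10). Among them Kmt2d, the methyltransferase, had a log2 fold change of -0.48 (limma adjusted p = 0.00539). Of the PRC1.1 complex that Kdm2b recruits, 2 of 9 rose and 5 fell (77.8% called, median -0.21), led by the X-linked Bcor (1.96-fold lower) and Bcorl1 (2.02-fold lower). The fall of Bcorl1 came to a log2 fold change of 0.01 after centring on each chromosome's median. Rybp, an autosomal subunit, fell 1.31-fold (log2 fold change -0.34, limma adjusted p = 5.46e-04).

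Enzymes that make or use 2-oxoglutarate, or handle the acids that compete with it, gave 4 higher and 7 lower of 17 (64.7% called, median -0.07), near the share of all tested genes. The X-linked Idh3g fell 1.80-fold, and the cytosolic isocitrate dehydrogenase Idh1 fell 1.67-fold (log2 fold change -0.72, limma adjusted p = 7.35e-06). Of 9 writers of N6-methyladenosine 3 rose and 2 fell (55.6% called, median -0.02). Virma rose 1.302-fold, Mettl14 rose 1.297-fold and Wtap fell 1.19-fold. Of 8 readers 1 passed (12.5%), Ythdf2 on chromosome 4, which fell 1.28-fold (log2 fold change -0.33, limma adjusted p = 4.16e-04) beside a median of -0.34 for its neighbours. Centring on chromosome medians ended the calls of Ythdf2 (-0.10, limma adjusted p = 0.123), Wtap (-0.11, 0.160) and Idh3g (-0.13, 0.0642). Among 10 repair and tRNA partners of the AlkB enzymes 5 rose and 2 fell (70.0% called, median 0.19). Mgmt, the other direct-reversal DNA repair enzyme, rose 1.55-fold (log2 fold change 0.59, limma adjusted p = 3.25e-06), and Usp4 rose 1.26-fold, whereas the X-linked Usp9x fell 2.26-fold.

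**Figure D4:**
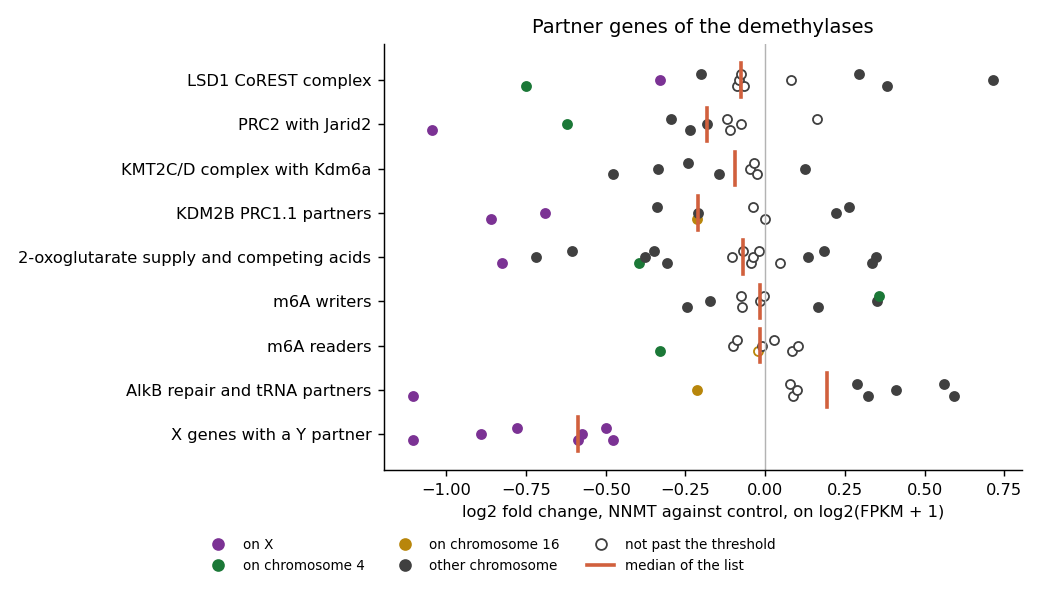
Log2 fold change, NNMT against control on log2(FPKM + 1), of each tested gene in 9 lists of partner genes, 1 circle per gene, open where the gene did not pass the test, with the median of each list as a vertical line. The X-linked genes, in purple, lie to the left in every list that holds one, and the 7 X genes with a Y partner have the lowest median, -0.59.

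Genes of the JmjC family outside the 35 gave 1 rise among 3 tested. Hspbap1, another chromosome 16 gene, rose 1.99-fold (log2 fold change 0.75, limma adjusted p = 8.53e-06). Of 7 X-linked genes with a Y-linked partner, a list that includes Kdm5c and Kdm6a, all 7 fell (median log2 fold change -0.59). All tested X genes had the lower median of -0.70, with 305 of 338 falling. Uba1 fell 1.86-fold.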

How the data were processed

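The deposited table gives 1 value per gene and library, with no unit in its header. The values were read as FPKM, and the authors' gene values were whole multiples of a step that scaled with transcript length. Whole reads were recovered for 20528 of 20528 genes above 0 (tolerance 0.01 of a read), 14597 of them (71.1%) with the length of the longest transcript, and the sums reached 99.86% of the implied library totals. CASAVA, STAR 2.5 and the build mm10 are named in the submitters' processing notes. The counter, its annotation and its strand setting were not given in the sources used here. One further limit is that the column of 1 NNMT library carries no number, and it is called the unnumbered NNMT library. Symbols and gene positions came from GENCODE M21 on GRCm38, for 34490 of 35275 identifiers, and promoter windows from RefSeq.

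Genes averaging at least 1 FPKM were compared on log2(FPKM + 1) in limma 3.58.1 under R 4.3.3, with trend and robust moderation, two-sided, 3 against 3 libraries, adjusted by Benjamini-Hochberg over 10882 genes at 0.05. The fit was tested on simulated data with a fixed dispersion in which few genes changed. Here 65.6% of tested genes passed, so that test cannot show how the fit performs on such data. Fold values are ratios of mean FPKM. Members that passed at 0.3 or more in absolute log2 fold change, the 5 highest by mean, and X-linked members were given by library, and up to 3 passing genes with the smallest adjusted p were given for each partner list, of which 1 is not reported here. The members and lists were chosen with earlier results of these data known. Alternatives were other scalings, filters, pseudocounts and thresholds, each library left out, a replicate block, limma-voom on recovered reads and, chosen after seeing the data, centring on chromosome medians.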

Additional observations from a re-analysis of the deposited data

How the results depend on the processing

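Over the alternatives run, the members that rose numbered 10 to 12 and those that fell 8 to 13, against 12 and 12. The 8 came with a filter at a mean of at least 5 FPKM, which left Kdm1b, Kdm6a, Kdm8 and Phf8 untested. Values that changed sign belonged to genes that had not passed, apart from Kdm4a (0.088), Kdm5c (0.12) and Bcorl1 (0.0095) after centring on chromosome medians. On the log2 scale, quantile normalization gave -0.012 for Kdm7a, -0.012 for Kdm4b and -0.021 for Jmjd6, and median-of-ratios scaling gave -0.00027 for Kdm4b and -0.018 for Jmjd6. Limma-voom gave -0.020 for Jmjd6, and centring gave -0.063 for Jmjd6 and -0.021 for Kdm3a. With 1 library left out at a time, Kdm4b ran from -0.021 to 0.11, Jmjd6 from -0.043 to 0.047, Riox1 from -0.00043 to 0.13, Jmjd4 from -0.067 to 0.030 and Kdm3a from -0.00035 to 0.065. The median difference of members from their neighbours was 0.07 within 5 Mb and 0.023 within 10 Mb. Kdm8 and Alkbh7 lost their calls under the replicate block (limma adjusted p = 0.059 and 0.0555). Without the filter on low values Kdm4a and Alkbh3 lost their calls. Alkbh3 also lost its call under quantile normalization, median-of-ratios scaling and limma-voom. Jarid2 passed under 5 alternatives: limma-voom, quantile normalization, median-of-ratios scaling, limma without trend and centring (limma adjusted p = 0.00857 to 0.0405).

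The replicate block, which pairs libraries of the same number, gave 12 members higher and 10 lower, and 3904 and 3203 genes over the whole table against 3806 and 3334. Limma-voom on the recovered whole reads called 3555 genes higher and 3616 lower. The block gave -0.019 for Kdm4b, -0.0050 for Jmjd6 and 0.011 for Jmjd4. Control replicate 1 and the unnumbered NNMT library have no partner in it and add nothing to its estimates, so its lost calls combine the pairing with fewer libraries. Deviations from the group means correlated at 0.21 and 0.11 for the numbered pairs, at 0.31 for control replicate 1 with the unnumbered library and at -0.38 to 0.21 for the others. With 2 numbered pairs and no shared source named in the labels, pairing was not established. Depth limited Kdm4d, with 11 reads in each group.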
